A study of Mus musculus with 12 samples.

Results

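The 37 genes of the mouse mitochondrial genome were followed in ileum RNA, over 12 libraries and 4 diet groups. They were chosen by name, as every gene whose symbol starts with mt-, and no expression value was used in the choice. They were 37 of the 44205 genes in the deposited table, and consisted of 13 protein genes, 2 rRNA genes and 22 tRNA genes. The libraries came from C57BL/6 mice, 1 mouse each and 3 mice a group, all 16 weeks old after 10 weeks on their diet. HF_Sugar mice received the Western diet (WD) of the study, that is high-fat food with 60% of its calories from fat, and a drink with 23% w/v sugar. HF mice had the same food with plain water. NF_Sugar mice had normal-fat food with the sugar drink, and NF mice had normal-fat food with plain water, the normal diet (ND). Libraries are named by group and replicate number, such as HF_Sugar_1. The labels give no genetic change in any group, and the question of the study was how WD acts on the intestine.

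Mitochondrial DNA is a small circle that is copied into long RNAs from both strands, and these are cut at the tRNAs that lie between the other genes. Its protein genes all encode subunits of the respiratory chain: NADH dehydrogenase (complex I, the mt-Nd genes), cytochrome b (complex III, mt-Cytb), cytochrome c oxidase (complex IV, the mt-Co genes) and ATP synthase (complex V, mt-Atp6 and mt-Atp8). Its rRNAs and tRNAs serve only the ribosomes inside mitochondria. All other subunits, and the enzymes that copy and process mitochondrial RNA, are made from nuclear genes. The intestinal epithelium uses much ATP for transport and renewal.

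Expression was given as RPKM, that is reads per kilobase of exon per 1 M mapped reads, which allows levels of different genes to be compared. By the study's methods, mRNA was picked by its poly(A) tail and rRNA was then removed, whereas the labels name total RNA as the input and give neither step. Which RNA was kept is therefore uncertain, and with it what the level of a mitochondrial rRNA or tRNA stands for. Of the 37 genes, 28 were annotated on the heavy-strand side (the plus strand of the annotation) and 9 on the light-strand side (the minus strand), namely mt-Nd6 and 8 tRNA genes. Neighbouring genes overlap on this compact genome. The longest overlap, of 43 bases, is shared by mt-Atp8 and mt-Atp6 (chrM:7927-7969, plus strand, GENCODE transcripts of build mm10), and is shown because reads from it belong to both genes. The capitals mark the start codon of mt-Atp6 at the left and the stop codon of mt-Atp8 at the right.
mt-Atp8 and mt-Atp6: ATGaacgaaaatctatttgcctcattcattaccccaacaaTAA

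The tRNA results turned on a few genes, whose sequences are given as annotated, 5′ to 3′, with the anticodon in capitals and T for U. They lie at chrM:6870-6938 on the minus strand (mt-Ts1, a serine tRNA), chrM:3772-3842 on the minus strand (mt-Tq, glutamine), chrM:3845-3913 on the plus strand (mt-Tm, methionine), chrM:15356-15422 on the minus strand (mt-Tp, proline) and chrM:2676-2750 on the plus strand (mt-Tl1, a leucine tRNA).
mt-Ts1: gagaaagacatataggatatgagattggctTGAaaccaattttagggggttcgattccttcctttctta
mt-Tq: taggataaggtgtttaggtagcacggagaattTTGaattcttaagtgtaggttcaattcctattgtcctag
mt-Tm: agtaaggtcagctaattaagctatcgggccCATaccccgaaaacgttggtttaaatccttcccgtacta
mt-Tp: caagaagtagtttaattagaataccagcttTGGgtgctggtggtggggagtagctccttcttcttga
mt-Tl1: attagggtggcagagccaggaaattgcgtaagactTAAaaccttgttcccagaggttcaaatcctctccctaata

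The nuclear genome holds copies of mitochondrial DNA that are listed in the table as genes of their own, and their sequence decides which reads can be assigned to an mt- gene. The next lines give the same 60 bases, positions 1063 to 1122 of mt-Co1 counted from its first base, in the gene itself (chrM:6390-6449), in the near-identical copy Gm29216 (chr1:24616129-24616188, minus strand) and in the diverged copy Gm13340 (chr2:22588526-22588585, minus strand). Capitals mark bases at which a copy and mt-Co1 differ, which are A1066T for Gm29216 and T1072C for Gm13340.
mt-Co1: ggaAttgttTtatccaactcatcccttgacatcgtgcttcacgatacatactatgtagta
Gm29216: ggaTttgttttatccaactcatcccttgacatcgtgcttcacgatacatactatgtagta
Gm13340: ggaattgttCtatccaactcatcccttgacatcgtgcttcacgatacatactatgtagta
Gm29216 had 1 difference over its 483 aligned bases, and Gm13340 had 37 over 1545 bases.

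Library depth, recovered from the steps between low RPKM values, was 15.3 to 39.0 M reads. The first principal component of all genes other than the 37 held 39.7% of the variance and parted 4 libraries, 1 in each group, from the other 8: HF_Sugar_2, HF_2, NF_Sugar_1 and NF_2. Genes took up 73.0% to 73.5% of the reads of these 4 and 76.7% to 81.0% of the reads of the rest. Ileal enterocyte markers were all present, with 10 of 10 tested and summed levels of 7762 to 27640 RPKM. Of the markers of the other 11 cell types, Adipoq alone was at 0 in any library.

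The mt- genes took up 4.46% to 7.59% of the RPKM of a library. Their share of all RPKM was 5.41%, 6.50% and 6.29% in HF_Sugar, 5.18%, 5.90% and 6.23% in HF, 5.03%, 4.72% and 6.53% in NF_Sugar, and 6.26%, 4.46% and 7.59% in NF. The NF libraries alone spanned the range of the whole series, so the groups overlapped throughout. The mean share of each group relative to that of NF was 0.994 ± 0.272 for HF_Sugar, 0.946 ± 0.259 for HF and 0.889 ± 0.278 for NF_Sugar (propagated SD, n = 3 each), all differences being smaller than the spread. In reads, the share was 2.05% to 3.11%, with a 95% Wilson interval of at most 0.0083 percentage points to each side, which covers counting error only. In ileal tissue, fewer cells of a type rich in mitochondria and less mt- RNA per cell cannot be told apart.

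In the deposited RPKM, mt-Co1 stood highest among the protein genes. Its level was 5163, 6039 and 7311 RPKM in HF_Sugar, 4975, 5138 and 5914 RPKM in HF, 5073, 4732 and 5465 RPKM in NF_Sugar, and 5746, 4750 and 6169 RPKM in NF. It ranked 4th to 15th among all genes of a library, below defensins and similar gut products such as Defa24, and between 2 and 6 of the 37 genes were among the 20 highest genes of each library. The highest mt-Co1 value was in HF_Sugar_3, and the groups overlapped.

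Averaged over the 12 libraries, mt-Co1 (5540 RPKM) was followed by its complex IV partners mt-Co2 (3437 RPKM) and mt-Co3 (3193 RPKM), then by mt-Atp6 (2772 RPKM), mt-Cytb (2608 RPKM) and mt-Nd1 (2489 RPKM). The remaining genes, of complexes I and V, were lower: mt-Nd4 at 1424 RPKM, mt-Atp8 at 1298 RPKM, mt-Nd6 at 1022 RPKM, mt-Nd2 at 797 RPKM, mt-Nd5 at 559 RPKM, mt-Nd3 at 451 RPKM and mt-Nd4l at 420 RPKM. In the deposited RPKM, this order held in 12 of 12 libraries at 3 steps only. These were mt-Co1 above mt-Co2, mt-Nd1 above mt-Nd4 and mt-Nd2 above mt-Nd5. All other neighbours changed places in at least 1 library, and mt-Nd3 was above mt-Nd4l in 7 of 12. The step from mt-Co1 to mt-Co2 is uncertain, because reads of mt-Co2 also fit a nuclear copy with 0.986 to 1.01 times its RPKM. The subunits of one complex differed widely in level although their genes are copied together. In complex I, mt-Nd1 was at 2489 RPKM and mt-Nd5 at 559 RPKM. Mt-Nd4l was lower still at 420 RPKM, but its reads also fit a nuclear copy, which makes its level uncertain.

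**Figure D1:**
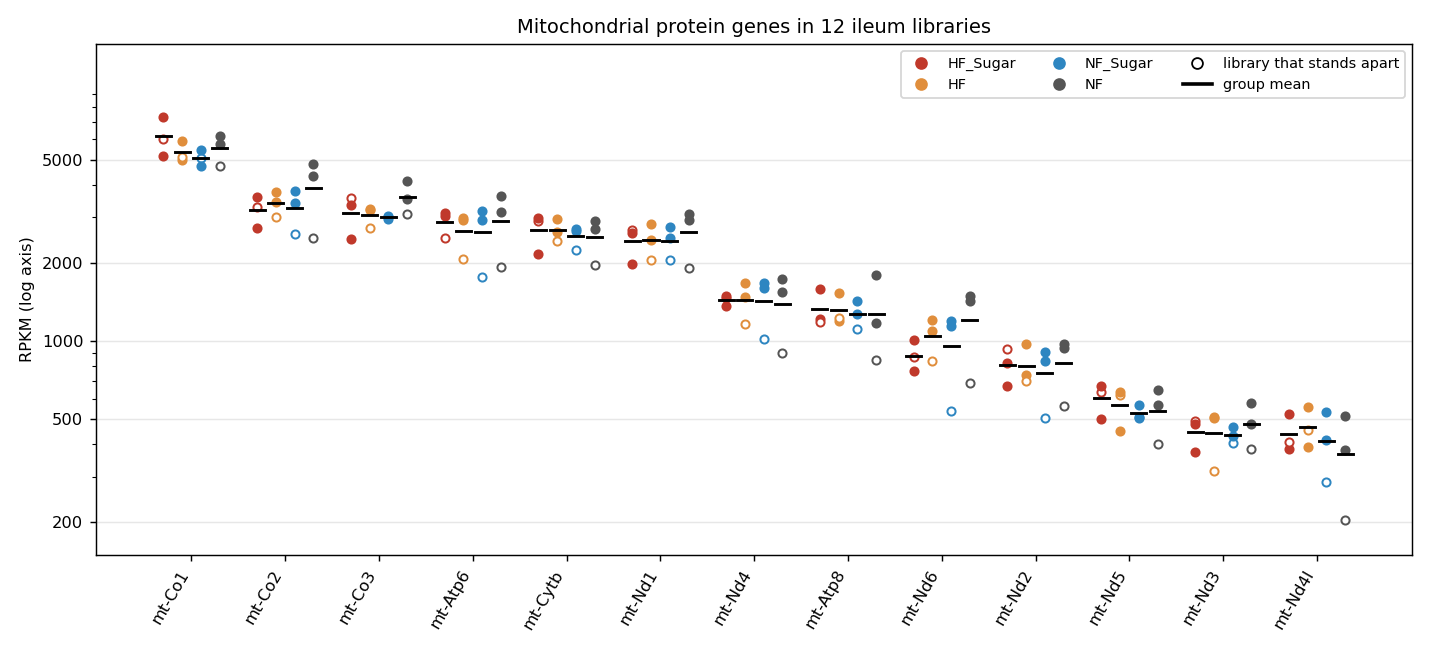
Levels of the 13 mt- protein genes (RPKM, log axis) in 12 ileum libraries, ordered by mean, with 1 point per library, open points for the 4 libraries that stand apart and a bar for each group mean (n = 3). The points of the 4 diet groups overlap for nearly every gene, and mt-Co1 lies above the rest.

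For most protein genes the proportions were kept more closely than the levels. As a percent of the summed RPKM of the 13 genes, mt-Nd1 held 8.66% to 10.6%, mt-Cytb 9.02% to 10.8% and mt-Co2 12.0% to 14.9%. A second measure was the log2 ratio of a gene to the mean log2 level of the 13 genes. Its SD over the 12 libraries was 0.09 for mt-Nd1, 0.09 for mt-Cytb and 0.10 for mt-Co2. The SD of their log2 levels was 0.24, 0.20 and 0.29. For mt-Co1 (0.18 and 0.18) and mt-Co3 (0.19 and 0.19), ratio and level varied about equally. The SD of the ratio was largest for mt-Nd6 (0.25) and mt-Nd4l (0.24).

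Mt-Nd6, a complex I subunit, is the sole protein gene of the light-strand side (chrM:13552-14070, minus strand). It was at 764, 865 and 1008 RPKM in HF_Sugar, 1095, 836 and 1208 RPKM in HF, 538, 1147 and 1197 RPKM in NF_Sugar, and 1425, 690 and 1496 RPKM in NF. The NF group held both its highest value and one of its lowest. Its part of the protein-gene total was 3.34%, 3.20% and 3.42% in HF_Sugar, 4.28%, 3.67% and 4.21% in HF, 2.55%, 4.43% and 4.41% in NF_Sugar, and 4.90%, 3.43% and 4.63% in NF. The highest HF_Sugar value lay just below the lowest NF value, which came from one of the libraries that stand apart. Mt-Nd6 was not alone in this. The part of mt-Co2 was also lower in HF_Sugar (11.956%, 12.199% and 12.187%) than in NF (14.849%, 12.387% and 14.945%). That of mt-Nd5 went the other way, with 2.182%, 2.356% and 2.284% in HF_Sugar and 1.948%, 1.989% and 2.003% in NF. Parts of one total depend on each other, so these are not separate observations. Ordering alone sets 3 libraries apart from 3, in either direction, with a probability of 0.1. The mean part of mt-Nd6 was lower by 0.997 percentage points in HF_Sugar than in NF (HF_Sugar minus NF: -0.997). This difference was -1.38 points without the 4 libraries and -0.584 points when recovered reads were used in place of RPKM. The ratio of mt-Nd6 to mt-Nd5, its neighbour on the opposite strand with 14 shared bases, was 1.07 to 2.51 over the libraries. Whether reads were assigned by strand is not given in the sources used here, so RNA from the opposite strand of any of these genes cannot be told apart from their own.

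The 2 rRNA genes were far below most protein genes. Mt-Rnr2, the large-subunit rRNA, was at 378, 274 and 213 RPKM in HF_Sugar, 128, 249 and 214 RPKM in HF, 159, 170 and 194 RPKM in NF_Sugar, and 290, 181 and 136 RPKM in NF. Mt-Rnr1, the small-subunit rRNA, was at 130, 103 and 62.8 RPKM in HF_Sugar, 54.2, 72.0 and 85.4 RPKM in HF, 64.9, 59.5 and 85.7 RPKM in NF_Sugar, and 136, 53.2 and 54.5 RPKM in NF. Mt-Rnr2 exceeded mt-Rnr1 by 2.14 to 3.46 times in every library. Together the rRNA genes came to 0.591% to 2.22% of the summed RPKM of the protein genes.

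The tRNA genes varied most. Mt-Ts1 averaged 312 RPKM, followed by mt-Tq (169 RPKM), mt-Tm (118 RPKM), mt-Tp (64.3 RPKM) and mt-Tl1 (37.3 RPKM), and mt-Tf was lowest at 1.04 RPKM. Of the 5 highest, 3 (mt-Ts1, mt-Tq and mt-Tp) belong to the light-strand side. Many tRNAs rested on few reads, so that mt-Tf had 0 to 5 reads in a library, and mt-Ts1 had 120 to 2063. A count of 0 occurred in 6 libraries for mt-Tf and in 3 for mt-Tr, and allowed a level of up to 2.71 RPKM for mt-Tf in HF_Sugar_3, the least deep of the 6 (3 reads).

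Mt-Ts1 was at 398, 96.3 and 222 RPKM in HF_Sugar, 410, 88.5 and 335 RPKM in HF, 73.1, 228 and 302 RPKM in NF_Sugar, and 279, 78.0 and 1238 RPKM in NF. Its 4 lowest values (73.1 to 96.3 RPKM) were those of the 4 libraries that stand apart, and its highest value, in NF_3, was far above all others. The summed level of the 22 tRNAs was 1529, 487 and 678 RPKM in HF_Sugar, 965, 252 and 1075 RPKM in HF, 320, 824 and 830 RPKM in NF_Sugar, and 1107, 362 and 2099 RPKM in NF. The 4 libraries that stand apart again held the 4 lowest sums, from 252 to 487 RPKM.

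In NF_3 the tRNA excess was on the light-strand side. Light-strand tRNAs summed to 9.86 times the heavy-strand tRNAs there, against 1.40 to 4.02 times in the other 11 libraries, and mt-Ts1 alone was 59.0% of the tRNA level. Nuclear miRNA genes also stood high in that library, at 2180 RPKM in sum against 259 to 950 RPKM elsewhere. Their part in the tRNA level was not tested.

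In each group, the library that stands apart was the lowest of its 3 libraries for 10 of 22 tRNA genes (45.5%), 1 of 13 protein genes (7.69%), which was mt-Atp6, and 0 of 2 rRNA genes. Over all 17662 tested genes, nearly all of which were used to draw the split, the same held for 14.5%. For 6 of the 37 genes, all 4 of those libraries lay below all 8 others, against 9.57% of all tested genes. The 6 were mt-Atp6 and the tRNAs mt-Ts1, mt-Tp, mt-Tc, mt-Tg and mt-Tt. Mt-Atp6 was at 1765 to 2494 RPKM in the 4 libraries and 2932 to 3640 RPKM in the others. Its near-identical nuclear copy was among the genes used to draw the split. Mt-Tp was at 20.7 to 40.3 RPKM in the 4 and 54.7 to 136 RPKM in the others.
Other short genes moved with this. Nuclear genes under 200 bases, some of them used to draw the split, summed to 2416 to 3210 RPKM in the 4 libraries. In the others they summed to 4102 to 9764 RPKM. Their part in the tRNA levels was not tested.

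**Figure D2:**
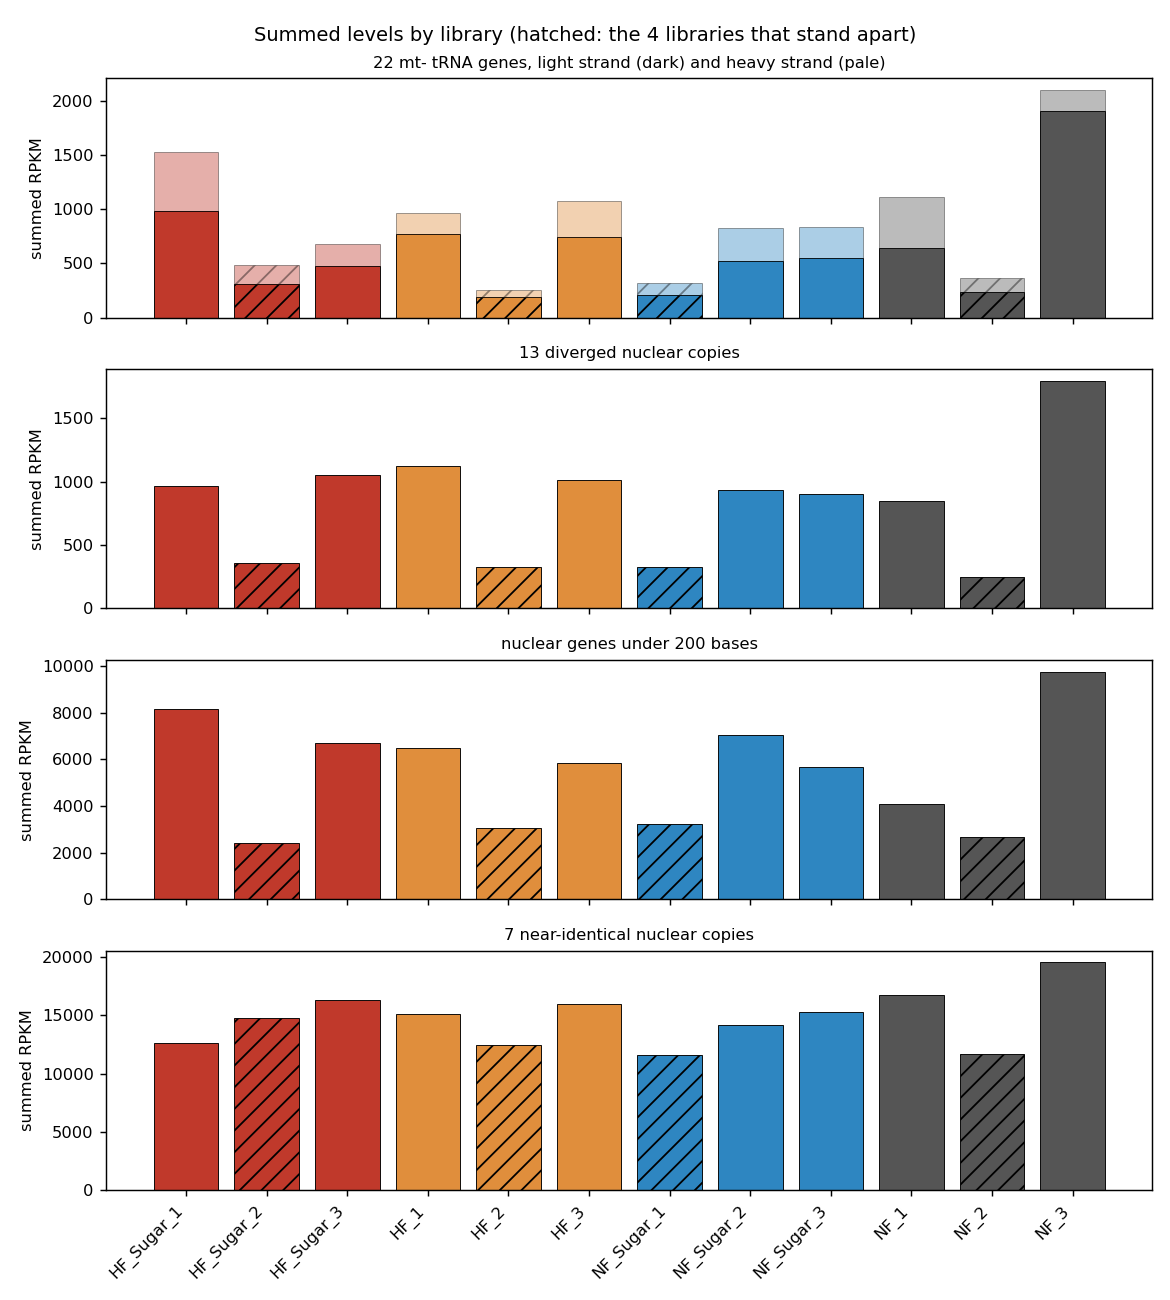
Summed RPKM in each of the 12 libraries, in 4 panels: the 22 mt- tRNA genes split by strand, the 13 diverged nuclear copies, all nuclear genes under 200 bases and the 7 near-identical nuclear copies. The hatched bars of the 4 libraries that stand apart are the 4 lowest in the first 3 panels, with tRNA sums of 252 to 487 RPKM, and not in the panel of near-identical copies.

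Nuclear copies were listed beside 7 of the protein genes, and 4 of the copies were at almost the level of their gene. These 7 copies lie side by side on chromosome 1 (chr1:24611535-24616197, minus strand) in the order of chrM:6390-11042, and each was at least 99% identical to the gene it copies. Gm28437, the copy of mt-Co3, had 0.996 to 1.01 times the RPKM of the gene and was the higher of the pair in 6 of 12 libraries. Gm28661 had 0.986 to 1.01 times the RPKM of mt-Co2, Gm10222 had 0.967 to 1.02 times that of mt-Nd4l, and Gm10925 had 0.910 to 0.983 times that of mt-Atp6. Each of these 4 copies matched its gene at every aligned base, and so a read inside them fits both places.

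The other 3 copies on chromosome 1 were lower than their gene in every library. Gm28438, with the single difference T3C from mt-Nd3, had 0.559 to 0.907 times its RPKM. Gm29216, which covers the end of mt-Co1, had 0.661 to 0.870 times the level of the whole gene, and Gm28439, which covers part of mt-Nd4, had 0.265 to 0.436 times. How reads that fit several places were assigned is not given in the sources used here. The levels of mt-Co1, mt-Co2, mt-Co3, mt-Atp6, mt-Nd4, mt-Nd4l and mt-Nd3 are therefore uncertain. Mt-Atp8 and the tRNAs mt-Ts1, mt-Td, mt-Tk, mt-Tg and mt-Tr lie in the same stretch of chrM, where the chromosome 1 sequence between the annotated copies was not analysed here. With the copies added, the share of all RPKM was 7.03% to 12.3%, in place of 4.46% to 7.59%.

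The 13 diverged copies at 0.5 RPKM or more were much lower than their genes. Gm13340, at 97.6% identity to mt-Co1, was at 441, 149 and 498 RPKM in HF_Sugar, 508, 147 and 446 RPKM in HF, 154, 377 and 393 RPKM in NF_Sugar, and 361, 106 and 882 RPKM in NF. Those of the 4 libraries that stand apart were its 4 lowest values. Gm13341, a copy of mt-Co2, was at 114 to 171 RPKM in these 4 and at 367 to 683 RPKM in the other 8, and Gm13339, a copy of mt-Nd2, was at 11.2 to 17.0 RPKM and at 52.4 to 107 RPKM. In all, 10 of the 13 diverged copies had all 4 of those libraries below all others, against 2 of the 7 near-identical copies. Over all tested genes the same held for 9.57%. The copies were themselves among the genes used to draw the split, so these counts are description only. The other diverged copies, all under 26 RPKM, were Gm11407 and Gm4076 (of mt-Nd5), Gm11512 (mt-Co1), Gm11410 and Gm43841 (mt-Cytb), Gm11408 (mt-Nd6), Gm12155 (mt-Co2), Gm43743 (mt-Atp6), Gm20594 (mt-Rnr2) and Gm28927 (mt-Co3).

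**Figure D3:**
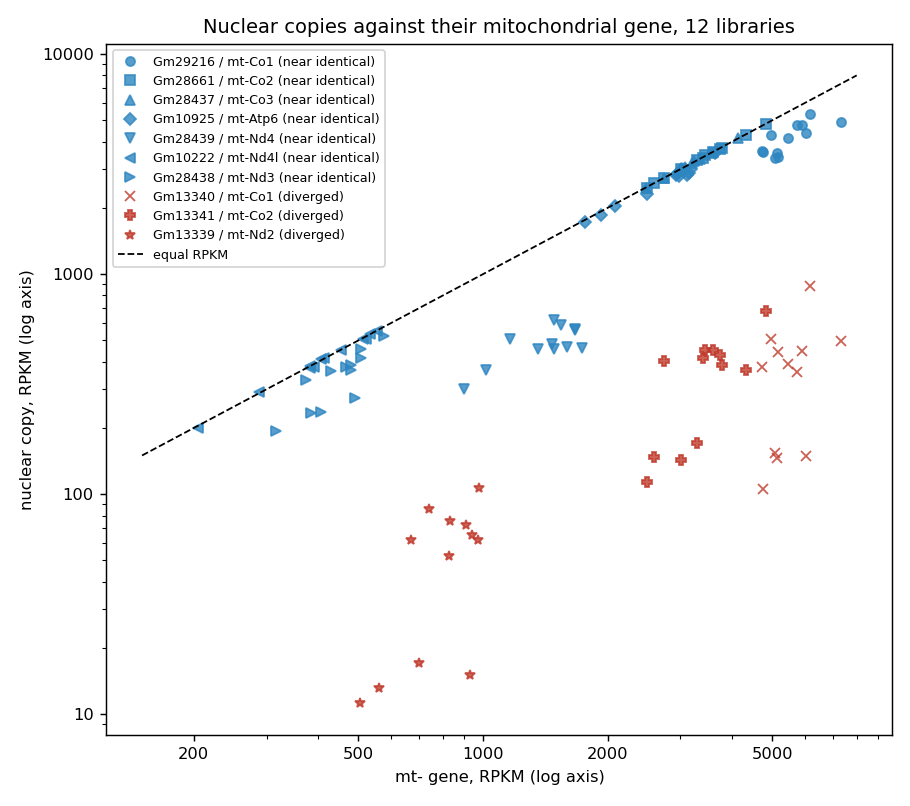
RPKM of nuclear copies (vertical, log axis) against the RPKM of the mt- gene each copies (horizontal, log axis), with 1 point per library and 12 points per copy. The near-identical copies of mt-Co2, mt-Co3, mt-Atp6 and mt-Nd4l lie on or close to the dashed line of equal RPKM, while the 3 highest diverged copies (red) lie far below it and fall into a lower set of 4 libraries and an upper set of 8.

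Diet was compared by limma on scaled log2(RPKM + 1), fitted over all 17662 tested genes, with p-values adjusted over all of them. In HF_Sugar against NF, the comparison of WD with ND, 0 of the 37 genes passed an adjusted p of 0.05, 0 of 37 had an unadjusted p under 0.05, and limma-voom on recovered reads also called 0. The test called 0 of all tested genes (0%), with 417 genes higher and 301 lower at an unadjusted p under 0.05 and 0 called by limma-voom. The 3 libraries of HF_Sugar and the 3 of NF overlapped for all 37 genes, and 10.2% of all tested genes had no overlap. That share is close to the probability of 0.1 with which ordering alone sets 3 libraries apart from 3. The p-values measure the spread between the 3 mice of each group.

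The median log2 difference in HF_Sugar against NF was 0.06 over the 37 genes, with 20 above 0 and 17 below. Its sign turned on single libraries, with -0.22 without NF_2, -0.19 without HF_Sugar_1 and -0.03 without NF_3. It was -0.01 for the protein genes, 0.40 for the rRNA genes and 0.09 for the tRNA genes. The median over all tested genes was between -0.01 and 0.01 in each comparison. Protein genes differed by -0.42 to 0.30, with a median SE of 0.22, and tRNA genes by -0.91 to 0.85 with a median SE of 0.71. The median SE of all tested genes was 0.18, so differences of tRNA genes were measured far less precisely than those of most genes.

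The 4 genes of lowest p in this comparison did not share a direction. Mt-Nd6 had a log2 difference of -0.42 (SE 0.32, 95% interval -1.13 to 0.28, limma adjusted p = 0.999). Mt-Co3, of complex IV, was at 2473, 3575 and 3341 RPKM in HF_Sugar and 3533, 3084 and 4136 RPKM in NF, a log2 difference of -0.25 (interval -0.66 to 0.17). Mt-Rnr2 had 0.49 (interval -0.35 to 1.33). Mt-Tc, the cysteine tRNA, was at 18.8, 6.64 and 12.1 RPKM in HF_Sugar and at 17.1, 7.71 and 77.2 RPKM in NF, a log2 difference of -0.91 (interval -2.52 to 0.69), and its NF mean rested on NF_3. These intervals hold no difference and, for all but mt-Co3, a change of 2-fold as well. Without NF_3 the log2 difference was 0.11 for mt-Rnr2 and -0.16 for mt-Tc.

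The protein genes' median had one sign between the libraries that stand apart and the other sign among the rest. Without these 4, the median log2 difference of HF_Sugar against NF was -0.12 over the 37 genes and -0.21 over the 13 protein genes, with 2 above 0 and 11 below. Between HF_Sugar_2 and NF_2 alone, without a test, the protein genes had a median of 0.38, and 13 of 13 were above 0. With the 4 libraries left out, 0 of the 37 were called.

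HF against NF, fat alone under plain water, called 0 of the 37 genes and 0 of all tested genes (0%), with 0 of 37 at an unadjusted p under 0.05 against 386 higher and 226 lower among all tested genes, and limma-voom called 0. The median log2 difference of the 37 was -0.17, with 6 above 0 and 31 below, and -0.35 for the tRNA genes. Its sign turned on single libraries, with a median of 0.07 and 23 above 0 without HF_2, and of 0.05 and 20 above 0 without NF_1. No member had HF and NF libraries apart in RPKM, as 8.35% of tested genes did, though mt-Co3 did after scaling, lower in HF. The lowest p belonged to mt-Nd4l, a complex I subunit, at 390, 454 and 554 RPKM in HF and 381, 204 and 513 RPKM in NF (log2 difference 0.40, SE 0.28, limma adjusted p = 1), and had 0.09 without NF_2.

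NF_Sugar against NF, the sugar drink alone, called 0 of 37 and 0 of all tested genes (0%), with 0 of 37, and 115 higher and 164 lower among all tested genes, at an unadjusted p under 0.05, and limma-voom called 0. The median log2 difference was -0.16, with 8 genes above 0 and 29 below. It was 0.02 with 20 above 0 without NF_1, and -0.02 with 18 above 0 without NF_Sugar_1. Mt-Co3 was the gene without overlap, at 3009, 2968 and 3029 RPKM in NF_Sugar and 3533, 3084 and 4136 RPKM in NF. That is 1 of 37 where 5.86% of all tested genes had none, and its near-identical copy makes its level uncertain. The lowest p was that of mt-Tc (log2 difference -1.0, SE 0.73, limma adjusted p = 1), which had -0.25 without NF_3.

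HF_Sugar against HF, the sugar drink on the high-fat diet, called 0 of 37 and 1 of all tested genes (0.00566%). That gene was Il1b, the cytokine interleukin-1 beta, and with the replicate number as a block 0 genes were called. Its recovered reads were not whole in the 3 HF_Sugar libraries (123.92, 141.46 and 92.05) and whole in the other 9. Its values in HF_Sugar_1 and HF_Sugar_2 carried 7 significant digits, where no mt- value carried more than 6. Over all genes, 17 values in 15 genes carried more than 6 digits, so Il1b was not alone in this. How these Il1b values were made is uncertain. None of the 37 had an unadjusted p under 0.05, against 333 genes higher and 416 lower among all tested genes, and 0 of 37 had groups without overlap, against 9.83% of all tested genes. The median log2 difference was 0.18, with 26 above 0, and 0.45 for the tRNA genes. Without HF_2 the median of the 37 was -0.12, with 10 above 0. Mt-Tr, the arginine tRNA, had the lowest p, with 7.83, 2.15 and 4.52 RPKM in HF_Sugar and 0, 0 and 7.27 RPKM in HF (log2 difference 1.40, SE 0.82, limma adjusted p = 1). Its counts of 0 allow 1.85 RPKM in HF_1 and 2.04 RPKM in HF_2, and HF_3, with 10 reads, was above both HF_Sugar_2 and HF_Sugar_3, so the groups overlapped.

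HF_Sugar against NF_Sugar, fat under the sugar drink, called 0 of 37 and 1 of all tested genes (0.00566%), again Il1b. None of the 37 had an unadjusted p under 0.05, against 194 genes higher and 94 lower among all tested genes. The median log2 difference was 0.09, and -0.08 without NF_Sugar_1. Mt-Rnr2 had no overlap, at 378, 274 and 213 RPKM in HF_Sugar and 159, 170 and 194 RPKM in NF_Sugar. It was 1 of 37, and 5.93% of all tested genes had no overlap. Its log2 difference was 0.66 (SE 0.38, interval -0.18 to 1.5, limma adjusted p = 1), and mt-Rnr1 had 0.41, so the higher level of mt-Rnr2 did not exceed the spread between mice by this test.

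The fat main effect (the mean of HF_Sugar and HF minus the mean of NF_Sugar and NF) called 0 of 37 and 0 of all tested genes (0%), with a median of -0.04. The sugar main effect (the mean of HF_Sugar and NF_Sugar minus the mean of HF and NF) likewise called 0 and 0 (0%), with a median of 0.02. With each library left out, the medians were -0.17 to 0.13 for fat and -0.10 to 0.09 for sugar. The interaction of fat and sugar, that is the HF_Sugar minus HF difference less the NF_Sugar minus NF difference, called 0 and 0 (0%) as well. None of the 37 had an unadjusted p under 0.05 in any of these 3, against 325 higher and 134 lower genes for fat, 255 and 341 for sugar, and 228 and 191 for the interaction, and limma-voom called 0 in each. In the interaction, 31 of 37 genes were above 0, with a median of 0.37 and of 0.70 for the tRNA genes. Mt-Tq had its lowest p, with 1.13 (SE 0.76, limma adjusted p = 1). Leaving out HF_2 took that median to 0.06, and leaving out NF_2 took it to 0.69.

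**Figure D4:**
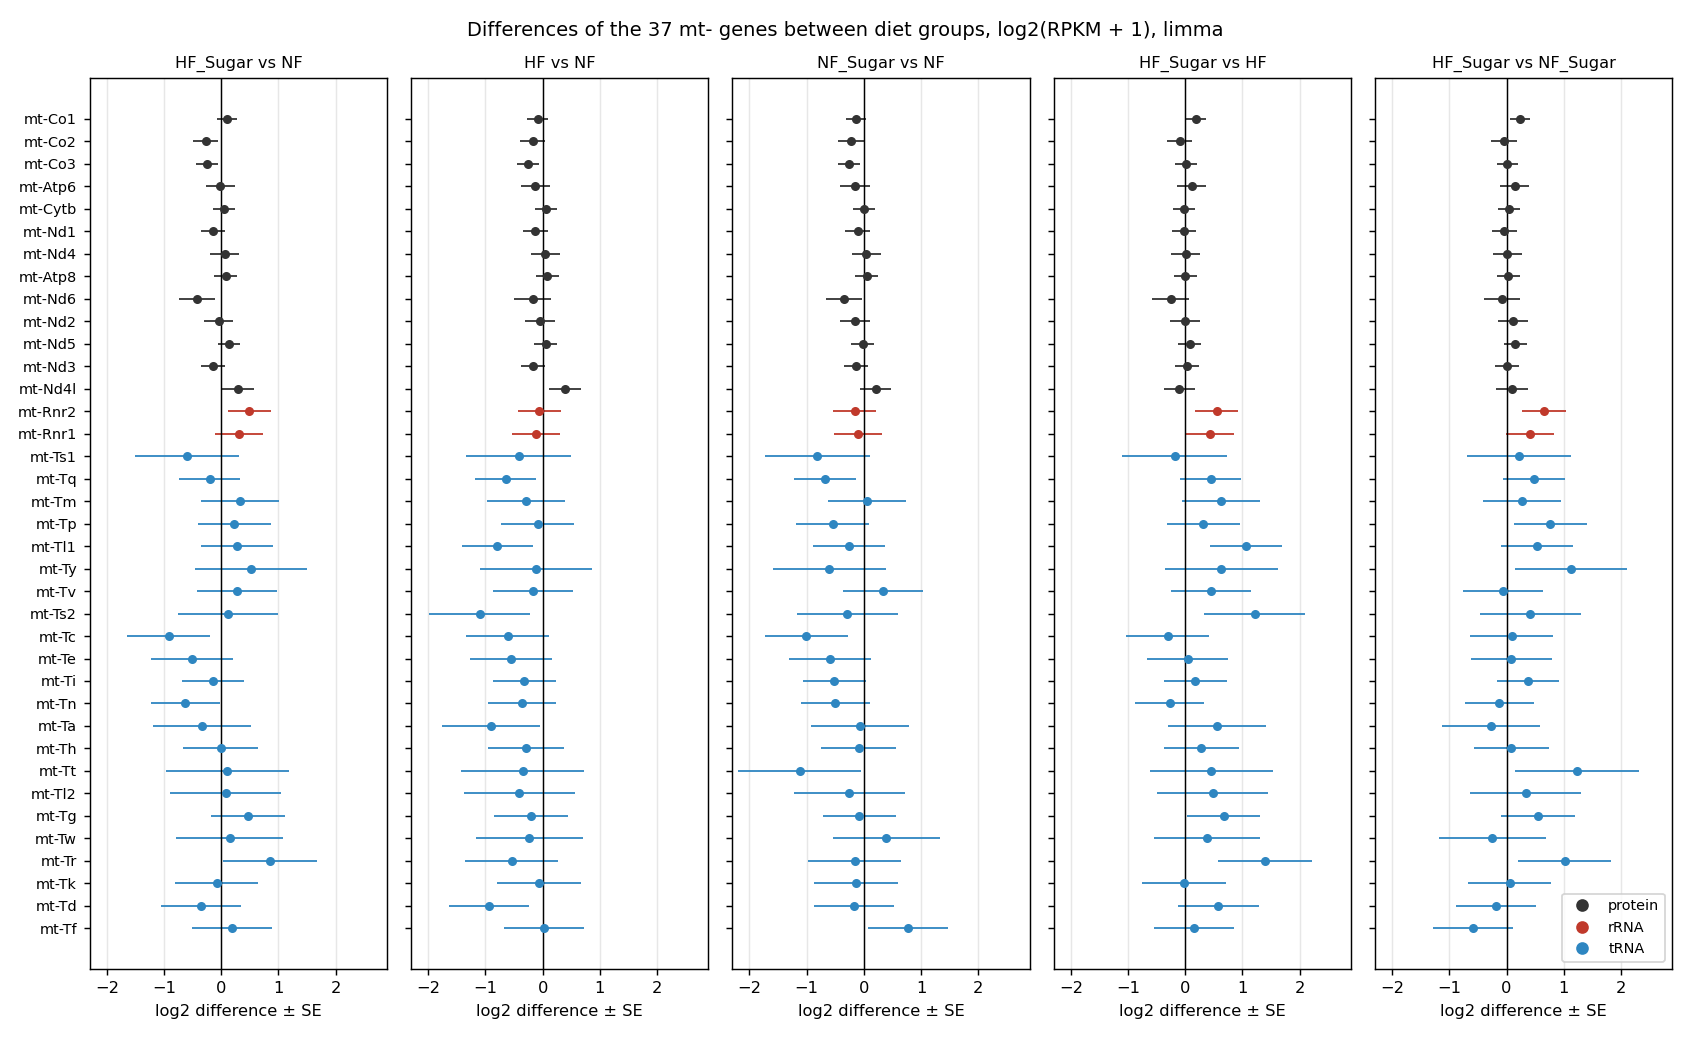
Log2 differences with their SE (limma, scaled log2(RPKM + 1)) for the 37 mt- genes in 5 comparisons of diet groups, with 3 mice per group. Protein genes (dark) lie close to 0 with short bars, tRNA genes (blue) spread widely with long bars, and 0 of 37 passed an adjusted p of 0.05 in any panel.

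Nuclear genes that work with mitochondrial DNA were described in 10 lists, beside 1 list of nuclear-retained RNAs. In HF_Sugar against NF, 0 genes of any list passed, and the same held in each of the other comparisons. Machinery for copying mitochondrial DNA into RNA had 9 of 11 genes above 0 and a median of 0.03. Polrmt, the mitochondrial RNA polymerase, was at 3.67 ± 0.22 RPKM in HF_Sugar and 3.24 ± 0.65 RPKM in NF (SD, n = 3). For replication and packaging of mitochondrial DNA 8 of 19 were above 0, and for processing and stability of mitochondrial RNA 14 of 32.

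In HF_Sugar against NF, unadjusted limma p-values under 0.05 were found for Exog, 1 of 19 replication genes, and Fastk, 1 of 32 processing genes. The other mitochondrial lists held 0 such genes. Over all these lists together, this was a smaller share than that over all tested genes, given above. Exog, a mitochondrial nuclease, was at 0.916 ± 0.126 RPKM in HF_Sugar and 0.520 ± 0.108 RPKM in NF, with a log2 difference of 0.31 (limma adjusted p = 0.999). Fastk, whose mitochondrial form is needed for mt-Nd6 mRNA, was at 13.3 ± 1.70 RPKM in HF_Sugar and 10.0 ± 1.88 RPKM in NF, a log2 difference of 0.34 (limma adjusted p = 0.999). Ppargc1a, a coactivator that drives mitochondrial biogenesis, was at 2.27 ± 0.24 RPKM in HF_Sugar and 1.58 ± 0.08 RPKM in NF (log2 difference 0.31, limma adjusted p = 0.999), and its list had 5 of 8 genes above 0. In HF, without the sugar drink, Fastk was at 13.2 ± 0.95 RPKM, Ppargc1a at 2.70 ± 0.38 RPKM and Exog at 0.793 ± 0.040 RPKM. The levels of Fastk and Ppargc1a were thus not particular to HF_Sugar.

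Nuclear subunits of the respiratory chain were mostly below 0 in HF_Sugar against NF, though 0 of them passed. Of complex I, 29 of 37 nuclear subunits were below 0 (median -0.16), and the same was true of 10 of 12 of complex IV (median -0.20), 13 of 16 of complex V (median -0.16), 8 of 9 of complex III (median -0.13) and 4 of 4 of complex II (median -0.06), which has no mitochondrially encoded subunit. Cox7a2l, of complex IV, was at 52.0 ± 11.5 RPKM in HF_Sugar and 72.0 ± 8.75 RPKM in NF (log2 difference -0.53, limma adjusted p = 0.999). Genes of mitochondrial mass and protein import were below 0 for 17 of 18 (median -0.13), among them the chaperone Hspa9 at 11.5 ± 1.74 RPKM in HF_Sugar and 14.1 ± 2.37 RPKM in NF. This lean was not particular to HF_Sugar. In HF against NF and NF_Sugar against NF, 17 and 16 of these 18 were below 0. The same was true of 10 and 10 of 12 for complex IV, 21 and 25 of 37 for complex I and 7 and 5 of 9 for complex III. For complex V it was 8 and 8 of 16, and for complex II 3 and 3 of 4. All of these comparisons share the NF libraries. For 3 nuclear-retained RNAs the median was 0.25 with 3 of 3 above 0, such as Malat1 at 26.6 ± 1.43 RPKM in HF_Sugar and 23.5 ± 10.97 RPKM in NF, whose log2 difference was -0.13 without NF_2.

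The sums of nuclear and mt- subunits are given along the split of the libraries. That split was drawn from nuclear genes, these subunits included, and without the mt- genes. The nuclear copies were among the genes used, such as Gm10925, whose reads also fit mt-Atp6 of complex V. For complex I the nuclear subunits summed to 1075 to 1190 RPKM in the 4 libraries that stand apart and to 1438 to 2141 RPKM in the other 8, without overlap. The mt- subunits of complex I summed to 5046 to 7487 RPKM in the 4 and to 6034 to 8836 RPKM in the others. For complex IV the nuclear sums were 1502 to 2051 RPKM in the 4 and 2328 to 3208 RPKM in the others, and the mt- sums, at 10326 to 12905 RPKM and 10374 to 15136 RPKM, overlapped as well. The sums of complex III overlapped for the mt- gene and not for the nuclear subunits, whereas those of complex V were apart for both, the mt- sums being 2781 to 3682 RPKM in the 4 and 4129 to 5433 RPKM in the others. The ratio of mt- to nuclear complex I transcripts was 2.93, 6.96 and 5.29 in HF_Sugar, 3.33, 5.61 and 4.92 in HF, 4.51, 4.09 and 4.83 in NF_Sugar, and 5.04, 4.24 and 4.64 in NF, so its lowest and its highest value were both in HF_Sugar.

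**Figure D5:**
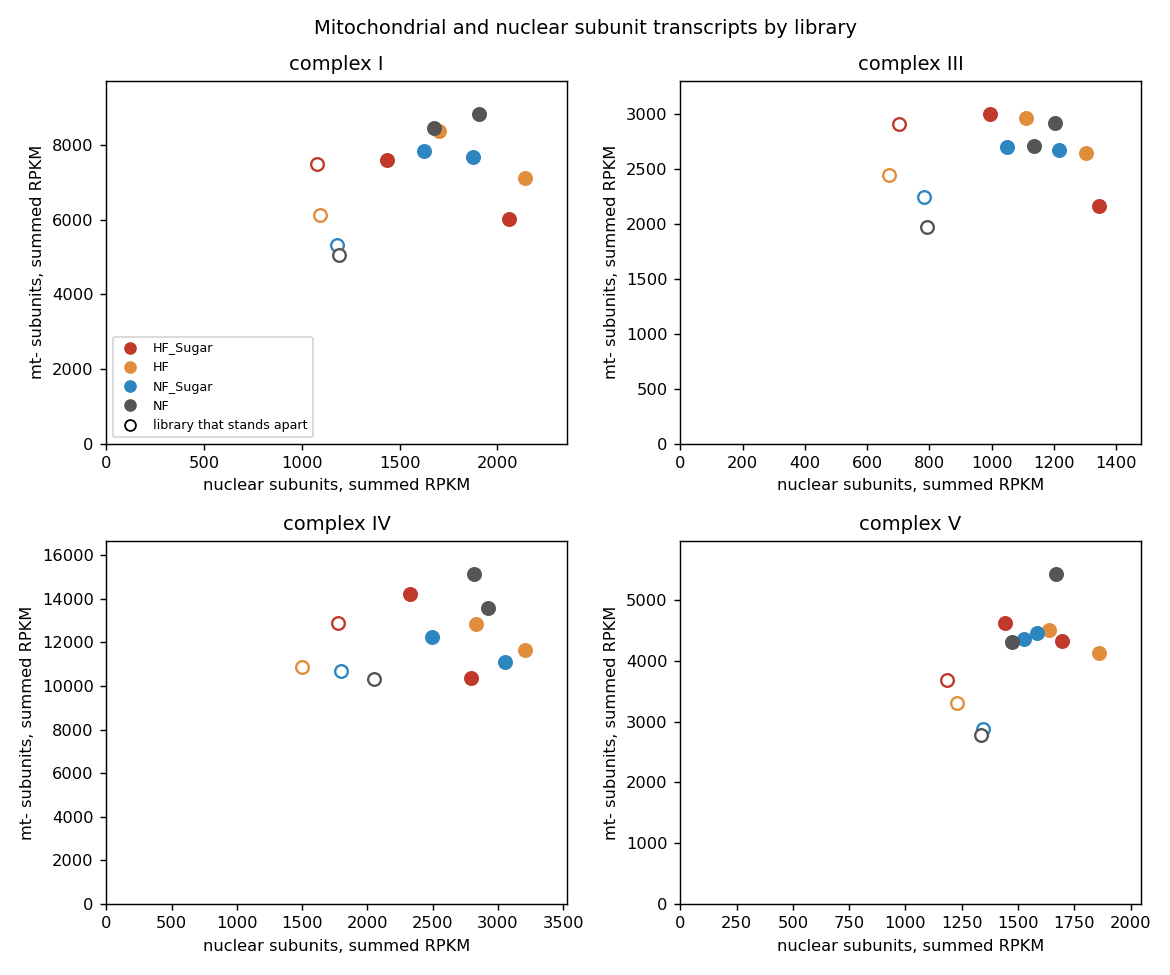
Summed RPKM of mt- subunits (vertical) against nuclear subunits (horizontal) of complexes I, III, IV and V, with 1 point per library, colored by diet group. In all 4 panels the open points of the 4 libraries that stand apart lie to the left of the others, while vertically they overlap with them for complexes I, III and IV.

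Nuclear genes whose pattern over the 12 libraries was most like the mean log2 level of the 13 protein genes were sought among 7068 genes with a mean of 5 RPKM or more. Among the 5 with the highest Pearson r were Mirlet7c-1, a let-7 miRNA gene (0.92), the copies Gm28661 (0.92) and Gm29216 (0.79), and Anp32a (0.77). Mirlet7c-1 was at 5.41 to 14.7 RPKM and Anp32a at 6.65 to 15.9 RPKM. Among the mt- genes themselves, r with that mean was 0.94 for mt-Nd2 and 0.43 for mt-Co1, and 0.01 for mt-Rnr2. These values describe 12 libraries that differ in depth and in the split above, and the genes of the mean share their reads with the 2 copies.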

How the data were processed

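Ileum RNA of 12 mice was analysed, with 3 mice in each of 4 diet groups as the labels give them. The authors prepared libraries with the Ion Total RNA-Seq Kit v2, sequenced them on the Ion Proton, aligned them in Partek Flow (STAR, build mm10) and deposited RPKM per gene, as a table and as per-sample files, 12 of 12 of which were identical to it. Strand setting and treatment of reads with several matches are not given in the sources used here. Of 44231 rows, 26 with bare numbers as names (at most 0.135% of RPKM) were left out.

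The unit was RPKM, so the count test of the study was not run. Libraries were brought to a common scale (trimmed mean of M values), and log2(RPKM + 1) was fitted with limma 3.58.1 in R 4.3.3 (trend on, 4 group means, 8 residual degrees of freedom) for 17662 genes that reached 0.5 RPKM in 3 or more libraries, which included 37 of 37 mt- genes. P-values were adjusted by Benjamini-Hochberg over all of these, with a threshold of 0.05. A log2 difference understates changes of low genes. Depth and reads were recovered from the steps of low values, by choosing for each library a depth at which low mt- tRNA values gave whole reads. With that depth, 249 of 249 mt- values under 1000 reads were whole within 0.03. Most of these are the values used for the choice, so this is no separate check of the depth. Recovered reads of mt-Atp8 and mt-Atp6, which overlap, were above 1000 and not whole. In data simulated for HF_Sugar against NF with 17662 genes, 59 of 100 genes changed by log2 1 and 92 of 100 changed by log2 2 were called. So were 7 unchanged genes, and 0 were called in a contrast without change. The simulated noise was independent between genes and held no split of the libraries. The changed genes were drawn from all tested genes, whose median SE in HF_Sugar against NF was 0.18. That of the 37 mt- genes was 0.63, so these rates do not carry over to them.

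Nuclear copies were found by aligning nuclear transcripts to mitochondrial ones (blastn 2.17.0, at least 80% identity, near identical from 99%). Named mt- genes were the 4 of lowest p in HF_Sugar against NF, with mt-Nd6 and mt-Rnr2 in any case, and the 1 of lowest p in each other comparison. From each nuclear list up to 4 genes of lowest p could be named. The 5 nuclear genes whose pattern was most like the protein genes were sought, and 1 of them is not reported here. Members and lists were chosen with earlier results of these data known. Nuclear gene lists covered mitochondrial pathways (10), nuclear-retained RNAs (1) and cell types (12).

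Replicate numbers were checked for pairing by the correlation of deviations from group means between libraries of one number. These were 0.19, 0.51 and 0.23 for HF_Sugar with NF and 0.49, 0.56 and 0.13 for HF_Sugar with HF, and at least one was under 0.1 in every other pair. The labels state no shared litter or cage, the main fit had no block, and the replicate block was an alternative. Other alternatives were other scalings, filters, pseudocounts (0.1 and 5), limma-voom, the libraries that stand apart left out or as a covariate, the 2 groups alone, and each library left out. Adding the copies to the members, shares of reads within the mt- genes, the libraries that stand apart alone and the protein genes alone were chosen after seeing the data. Python 3.11.15, numpy 2.4.6, pandas 2.3.3 and matplotlib 3.10.9 were used.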

Additional observations from a re-analysis of the deposited data

How the results depend on the processing

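The count of called mt- genes was 0 in 189 of 189 alternatives over 24 settings, and unadjusted p-values under 0.05 occurred in 16 of these 189 fits, for at most 2 of the 37 genes. Named mt- genes kept their sign in all but 1 of 260 values, though their size moved with single libraries. It was 0.11 to 0.82 for mt-Rnr2 in HF_Sugar against NF. For mt-Tc in NF_Sugar against NF it was -1.64 to -0.25, and for mt-Nd4l in HF against NF 0.09 to 0.55. Of the values of nuclear list genes, 13 of 1018 changed sign, with 0 called. Both sets of genes were named for a low p in these same data, which favours a kept sign. Their kept sign is therefore no support for their direction. Medians over the mt- genes, which were not picked by p, changed sign in 57 of 388 values. For HF_Sugar against NF the median of the 37 was -0.22 without NF replicate 2 and 0.22 without NF replicate 1.

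Over all genes, HF_Sugar against NF called 5 with every gene above 0 tested and 1 with a pseudocount of 5 (0 to 1 with a library left out). HF against NF called 4 with every gene above 0 (0 to 2), and NF_Sugar against NF called 4 (0 to 1). HF_Sugar against HF, with 1 called, went to 0 with every gene above 0, a mean RPKM of at least 5, a pseudocount of 0.1, limma-voom, the replicate block, the 4 libraries left out or as a covariate, or only the 2 groups (0 to 2 with a library left out). HF_Sugar against NF_Sugar, with 1 called, went to 0 under these same settings and also with no further scaling and with median-of-ratios scaling (0 to 1 with a library left out). The sugar main effect and the interaction called 0 to 1 with a library left out. The cause was not tested. With the replicate block, 0 mt- genes were called in every comparison, and the block changed no other call. The ratio of the mean mt- share to that of NF was 0.845 for HF_Sugar, 0.824 for HF and 0.813 for NF_Sugar without the 4 libraries that stand apart, and 0.88 to 1.13, 0.83 to 1.08 and 0.78 to 1.01 with a library left out.

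Few reads limit what mt-Tf and mt-Tr can show, but the error of a tRNA gene with more reads was wide too. In HF_Sugar against NF the SE was 0.70 for mt-Tf, at 0 to 5 reads, and 0.92 for mt-Ts1, at 120 to 2063 reads. The added 1 in log2(RPKM + 1) holds down the spread of mt-Tf, which was at 0 to 3.26 RPKM. The pair therefore does not show how much few reads add to the error.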
